A study of Mus musculus with 12 samples.

Results

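The genes described here encode the contractile apparatus of smooth muscle and the related actomyosin machinery of other cells. They were taken from a list of 34 gene symbols, each represented by the probe set carrying that single symbol with the highest mean over the arrays. All 34 were measured, out of 19938 genes with such a probe set. Uterine cells of CD-1 mice, isolated by enzyme digestion on day 4 of pseudopregnancy, had been grown as a primary co-culture, with epithelial sheets growing on inserts coated with matrigel and stromal cells growing on cover slips. After a hormone-free night both layers received either estradiol (E2) at 10 nM or the vehicle, ethanol at 0.01%, and were harvested apart after 2 days. This gave 4 groups of 3 Affymetrix Mouse Gene 1.0 ST arrays, 1 group for each layer and treatment. The labels name no genetic change and do not say whether replicates were separate animals or cultures.

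Smooth muscle contracts when calcium and calmodulin activate myosin light chain kinase, which phosphorylates the regulatory light chain so that myosin filaments pull on actin filaments decorated with tropomyosin, caldesmon and calponin. Cells outside muscle use the same principle with nonmuscle myosins, anchoring their stress fibres to the membrane through focal adhesion proteins. Serum response factor (SRF), with the cofactor myocardin or its relatives that sense free actin, drives many of these genes through a DNA element called the CArG box. In the uterus the smooth muscle proteins are best known from the myometrium, and cultured stromal fibroblasts can also take up part of the set.

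Because SRF binding sites link many of these genes, the RefSeq promoters (GRCm38.p6) of the members were searched for the CArG box, that is CC, then 6 bases that are each A or T, then GG, a pattern that reads the same on both strands. Windows ran from 250 bases before to 50 after the gene start. A window was given for 30 members. Actg2, Tagln, Myh11 and Myocd had none in that table. A box was present for 7 of the 30 (23.3%), namely Srf, Myl9, Myl6, Cnn2, Vcl, Fhl1 and Fhl2, against 1.81% of the 27025 genes with a window. Allowing 1 mismatch within the A/T core, a setting chosen after the exact search had been seen, gave 10 of 30 (33.3%) against 11.3% of all genes, the added members being Acta2, Pcp4 and Tpm3. An exact estrogen response element, GGTCA and TGACC with any 3 bases between them, also the same on both strands, was in 0 of the 30 windows and in 0.074% of all genes, so none overlapped a box. These matches describe letters in a window and were not tested as binding sites. The stretches below, all before the start site, are shown because they hold the boxes of SRF itself (2 boxes), of the light chain gene Myl9, the calponin gene Cnn2, the vinculin gene Vcl and the LIM protein gene Fhl1, and the pair of imperfect boxes of the smooth muscle actin gene Acta2. Capitals mark the boxes.
Srf: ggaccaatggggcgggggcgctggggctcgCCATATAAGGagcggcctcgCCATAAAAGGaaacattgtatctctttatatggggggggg
Myl9: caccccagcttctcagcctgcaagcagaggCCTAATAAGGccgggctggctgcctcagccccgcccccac
Cnn2: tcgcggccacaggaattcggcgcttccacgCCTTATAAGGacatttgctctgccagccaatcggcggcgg
Vcl: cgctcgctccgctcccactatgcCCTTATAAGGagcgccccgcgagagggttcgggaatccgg
Fhl1: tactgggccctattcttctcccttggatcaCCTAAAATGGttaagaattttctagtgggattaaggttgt
Acta2: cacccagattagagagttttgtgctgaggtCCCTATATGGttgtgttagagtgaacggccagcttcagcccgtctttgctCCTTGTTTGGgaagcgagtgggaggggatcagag

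Their positions are chr17:46556185-46556274 (minus strand) for Srf, chr2:156775273-156775342 (plus strand) for Myl9, chr10:79988514-79988583 (plus strand) for Cnn2, chr14:20929148-20929210 (plus strand) for Vcl, chrX:56779551-56779620 (plus strand) for Fhl1 and chr19:34255374-34255487 (minus strand) for Acta2. The first base of the box lay 161, 56, 227 and 102 bases before the start of Myl9, Cnn2, Vcl and Fhl1. In Srf the boxes began 82 and 62 bases before the start, and in Acta2 84 and 34.

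Values below are log2 RMA signals of single arrays, given in the order of replicates 1, 2 and 3. The error after ± is limma's standard error of a log2 difference, every group has n = 3, and adjusted p means limma's p after Benjamini-Hochberg adjustment over the 23410 probe sets with a gene symbol, with passing set at 0.05. That error rests on 1 spread per probe set pooled over the 4 groups. A gene's E2 differences therefore carry the same error in both layers, although epithelial arrays spread more widely than stromal ones (SDs below). Array medians lay between 7.38 and 7.43. Detection above background was not tested. The members had a median SD of 0.126 and 0.123 in the epithelial groups (vehicle, E2) against 0.185 and 0.158 over all probe sets tested, and 0.0707 and 0.0551 against 0.0946 and 0.0804 in the stromal groups. The mean of 12 epithelial markers was 10.92, 11.50 and 9.86 in epithelial vehicle and 9.79, 10.02 and 10.09 in epithelial E2 arrays, and 6.64 to 7.18 in the stromal arrays. Vehicle replicate 3 of the epithelial layer was the lowest of its group. The mean of 13 fibroblast markers was 10.28, 10.06 and 10.86, then 10.83, 10.79 and 10.70 with E2, in the epithelial layer and 10.95 to 11.28 in the stromal layer, so the inserts gave signal for these genes too. Under vehicle 7 of the 13 passed as lower in epithelium and 0 as higher, and under E2 2 and 0. Which cells on the inserts gave this signal was not tested. In such bulk samples fewer cells of a type and less RNA per cell cannot be told apart.

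In the stromal layer E2 raised 3 members and lowered 2, where 1.52% of all probe sets rose and 1.98% fell. The thin filament protein calponin (Cnn1), the actin nucleator leiomodin (Lmod1) and the smooth muscle regulatory light chain (Myl9) rose by 1.34-fold to 1.52-fold. The calmodulin regulator Pcp4 fell 2.09-fold and the nonmuscle myosin heavy chain Myh9 fell 1.51-fold. The fall of Myh9 is that of its brighter probe set, and a dimmer one showed no stromal difference (-0.00). The other 29 members did not pass. The share called, 5 of 34 (14.7%), stands beside 3.50% of all probe sets tested. A filter on low values kept 12826 probe sets, 33 of the 34 members among them. It asked that the highest of the 4 group means lie above the median of all tested values. Pcp4 passed it only through its stromal vehicle mean (8.02), its other group means being 6.95 to 7.18. The fit on the filtered probe sets called 6 of 33 members, beside 6.63% of its probe sets. The median difference of the members was 0.07 against 0.03 for all probe sets tested. Fitted on the stromal arrays alone, 6 members passed, these 5 among them, beside 9.15% of all probe sets. Quantile normalization also gave 6 (3.72% of all probe sets). A trended robust prior (3.43%), the replicate number as a block (2.84%) and the mean of a gene's probe sets (3.5%) each gave 4. Fits without 1 stromal array gave 2 or 3, beside 1.76% to 2.84%.

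In the epithelial layer E2 lowered 3 members and raised 0, where 1.12% of all probe sets fell and 1.77% rose. The enteric smooth muscle actin Actg2 fell 2.03-fold, Myh9 fell 1.63-fold and the actin crosslinker filamin A (Flna) fell 1.26-fold. The other 31 did not pass, 16 of the 34 having an unadjusted p under 0.05. The share of all probe sets at that unadjusted level was not counted, so this count and the similar ones below have no background beside them. The share called was 8.82%, beside 2.90% of all probe sets. The filtered fit called 3 of 33 members, beside 6.74% of its probe sets. The median difference was -0.11 against 0.03 for all probe sets tested. Fitted on the 6 epithelial arrays alone, 0 members passed by limma, beside 0.209% of all probe sets, and 9 members had an unadjusted p under 0.05. Leaving out single arrays gave from 1 (without vehicle replicate 1 or E2 replicate 2) to 5 members (without vehicle replicate 3). The shares of all probe sets passing in these fits were 1.76%, 0.94% and 6.98%, in that order.

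**Figure D1:**
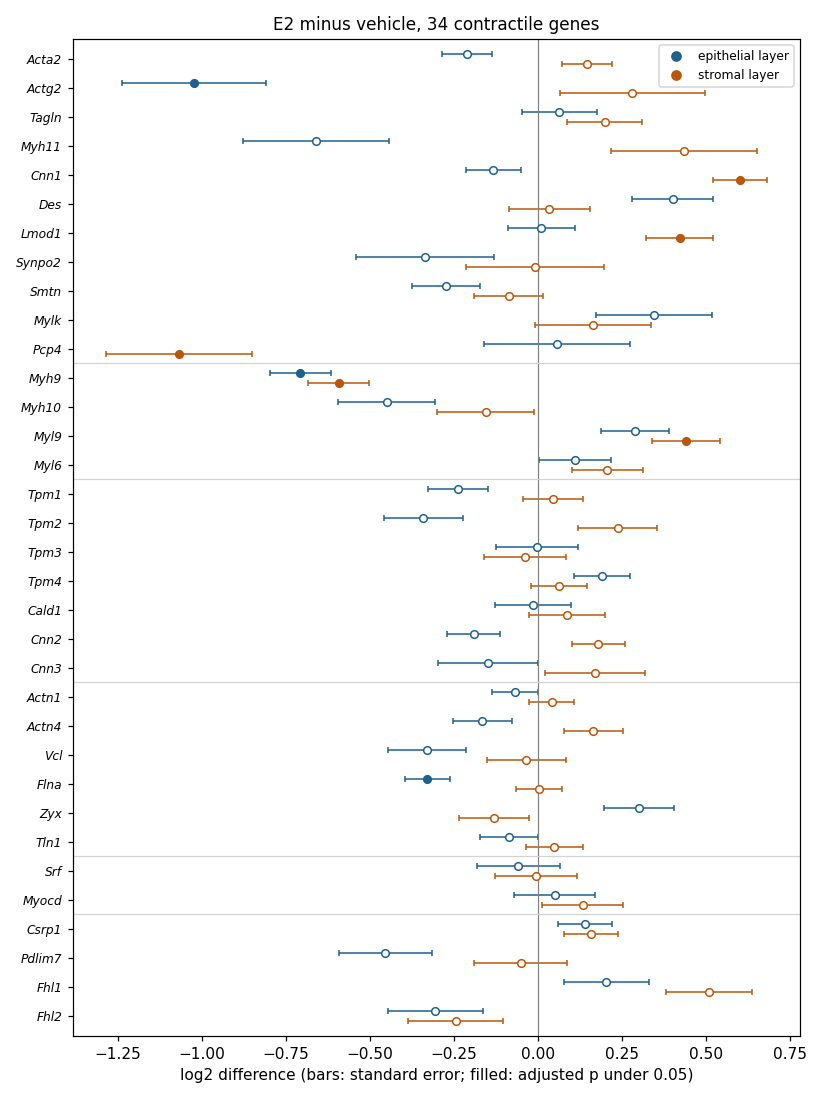
Log2 difference between E2 and vehicle arrays (horizontal axis) for the 34 members (rows, grouped by role), in the epithelial (blue) and stromal (orange) layers, with standard errors from limma. Filled points passed the adjusted p threshold, and Myh9, shown by its brighter probe set, is the one gene filled in both layers.

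Among the smooth muscle proteins, Cnn1 restrains the myosin ATPase on the thin filament. In stroma it measured 11.42, 11.48 and 11.52 under vehicle and 12.08, 12.09 and 12.06 under E2, a rise of 0.60 ± 0.08 (adjusted p = 0.00175) with no overlap between groups. In epithelium it measured 10.98, 10.92 and 11.12 under vehicle and then 10.97, 10.82 and 10.83 under E2, and the groups overlapped (-0.13 ± 0.08, adjusted p = 0.483). The difference between the layers in the E2 effect was -0.73 ± 0.11 (epithelial minus stromal, adjusted p = 0.0144). Cnn1 was the only member of 34 past the threshold for that difference (2.94%, against 0.910% of all probe sets, 0.269% in that direction). The stromal rise passed in every fit that left out 1 array (highest adjusted p = 0.0134). The layer difference did not pass without epithelial E2 replicate 2, stromal E2 replicate 1 or stromal E2 replicate 2 (adjusted p from 0.0529 to 0.0568), nor with the replicate number as a block.

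Lmod1, which starts new actin filaments in smooth muscle, went in stroma from 8.58, 8.64 and 8.83 to 9.15, 9.03 and 9.12 with E2, all 3 E2 arrays above all vehicle arrays (0.42 ± 0.10, adjusted p = 0.0403). In epithelium it stayed near the array median, at 7.33 to 7.61, with a difference of 0.01 ± 0.10 (95% interval -0.21 to 0.23). The stromal call was lost without either of stromal vehicle replicates 1 and 2 or any of the 3 stromal E2 arrays (adjusted p from 0.0979 to 0.180), the difference then lying between 0.37 and 0.49. It was also lost with a trended, robust prior (adjusted p = 0.0514, over all alternatives 0.0177 to 0.180).

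Pcp4 (Purkinje cell protein), a small modulator of calmodulin that marks myometrial muscle among other tissues, behaved otherwise. In stromal vehicle arrays it read 7.42, 8.17 and 8.47, the widest spread of any member in that group, and under E2 6.93, 6.94 and 6.98. This was a fall of 1.07 ± 0.22 (adjusted p = 0.0195). The epithelial arrays ranged from 6.97 to 7.42 with an E2 difference of 0.06 ± 0.22, and every stromal E2 array was below every epithelial E2 array. These epithelial and stromal E2 values lay near or below the array medians (7.38 to 7.43). Vehicle replicate 1 was far below the other vehicle arrays, and without it the fall was 1.37. The layer difference was 1.12 ± 0.31 (adjusted p = 0.145) and passed without that array. The stromal call was lost without vehicle replicate 2 or 3 or any 1 of the stromal E2 arrays (adjusted p from 0.0640 to 0.0800).

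Actg2 is the actin isoform of enteric and uterine muscle. In epithelial arrays it went from 10.57, 10.00 and 10.44 to 9.76, 9.39 and 8.79, a fall of 1.02 ± 0.21 (adjusted p = 0.0285) in which every E2 array was below every vehicle array. The stromal arrays read 11.86, 11.83 and 12.04 under vehicle and 12.24, 12.28 and 12.06 under E2 (0.28 ± 0.21, adjusted p = 0.759). The E2 effects of the layers differed by -1.30 ± 0.30, which did not pass (adjusted p = 0.0821) but did without epithelial vehicle replicate 2, E2 replicate 1 or E2 replicate 3. The epithelial call was lost without vehicle replicate 1 or E2 replicate 2 (adjusted p from 0.0923 to 0.0937). The striated muscle actin Acta1, a close relative in sequence, fell in the same arrays (-0.66 ± 0.13, adjusted p = 0.0257). Signal shared between actin probe sets was not tested.

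Myh11, the smooth muscle myosin heavy chain, had differences of the same signs as Actg2 without passing. It measured 8.99, 8.32 and 8.32 and then 8.19, 7.95 and 7.49 with E2 in epithelium (-0.66 ± 0.22, adjusted p = 0.143), and 10.15, 10.10 and 10.26 and then 10.66, 10.86 and 10.29 in stroma (0.43 ± 0.22, adjusted p = 0.476). The groups did not overlap in either layer, the margin in stroma being small. The layer difference in the effect was -1.10 ± 0.31 (adjusted p = 0.155).

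Acta2, the alpha smooth muscle actin of muscle and myofibroblasts, measured 12.83, 12.77 and 12.74 under vehicle and then 12.67, 12.51 and 12.53 under E2 in epithelium. In stroma it measured 13.03, 12.97 and 13.01 and then 13.18, 13.10 and 13.16. Its differences were -0.21 ± 0.07 in epithelium (adjusted p = 0.175) and 0.14 ± 0.07 in stroma (adjusted p = 0.500), and the groups did not overlap in either layer. Tagln (transgelin, an actin-binding protein) read 11.85 to 12.34 in epithelial and 12.42 to 12.70 in stromal arrays, with differences of 0.06 and 0.20. Neither gene passed.

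The remaining smooth muscle proteins did not pass in either layer. Desmin (Des), the muscle intermediate filament, measured 12.06, 11.82 and 11.98 under vehicle and 12.56, 12.45 and 12.05 under E2 in epithelium (0.40 ± 0.12, adjusted p = 0.111), where E2 replicate 3 lay within the vehicle range, and both the epithelial difference and the layer difference passed without that array. In stroma it read 12.98 to 13.04 in all 6 arrays (0.03 ± 0.12). Mylk, the light chain kinase, differed by 0.35 ± 0.17 and 0.16 ± 0.17, smoothelin (Smtn) by -0.27 ± 0.10 and -0.09 ± 0.10, and synaptopodin 2 (Synpo2) by -0.34 ± 0.20 and -0.01 ± 0.20, in epithelium and stroma. Mylk passed upward in epithelium without vehicle replicate 3 alone. Of the 11 smooth muscle proteins, E2 arrays stood above vehicle arrays without overlap in 7 in stroma and in 0 in epithelium, and below them in 1 and 4. Over all probe sets tested these shares were 15.9% and 6.95% above, and 14.6% and 8.04% below.

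**Figure D2:**
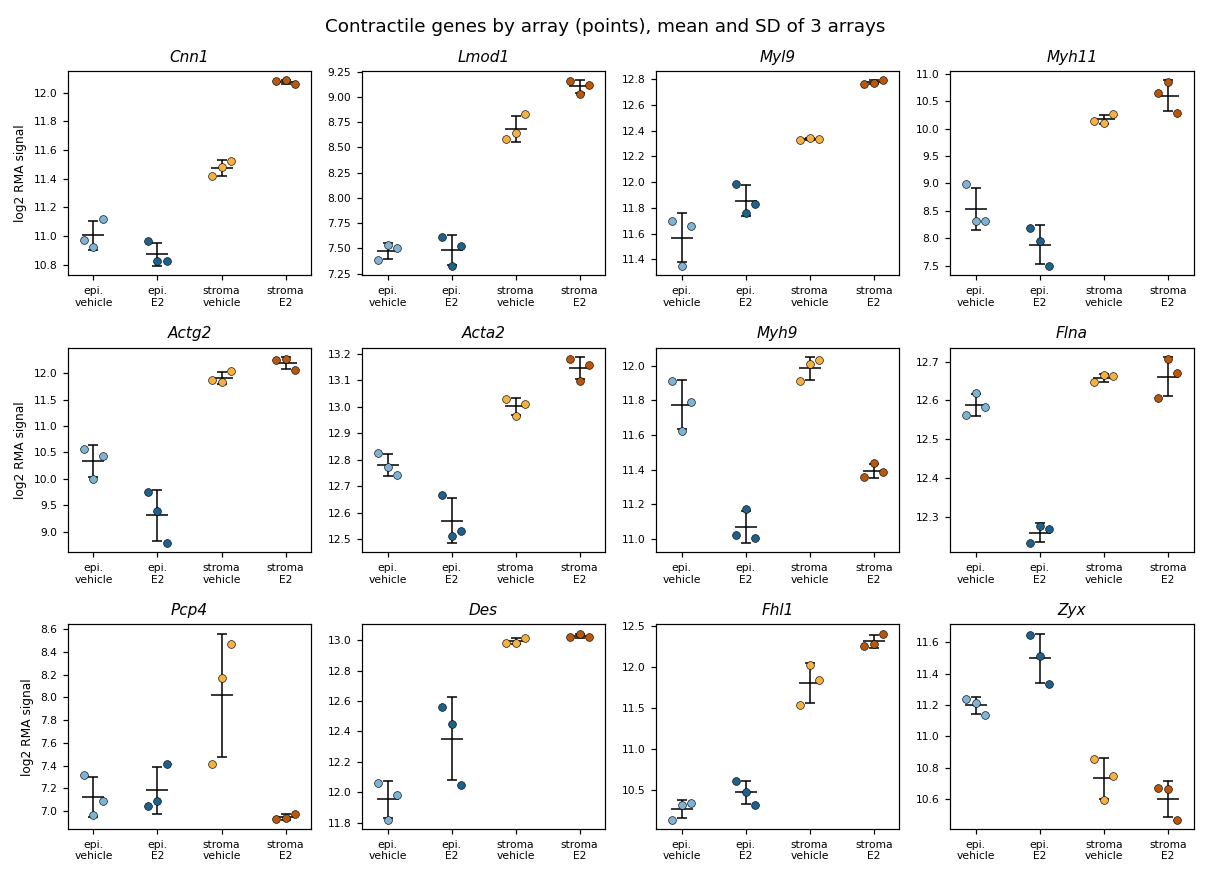
Log2 RMA signal (vertical axes, each with its own range) of 12 members in each of the 12 arrays (points) by group, with the mean and SD of 3 arrays. Cnn1, Lmod1 and Myl9 sit higher with E2 in stroma, and Myh9 (brighter probe set) sits lower with E2 in both layers. Pcp4 sits lower with E2 in stroma, below the epithelial E2 arrays.

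Among the broadly expressed myosins, Myh9, the heavy chain of nonmuscle myosin IIA, fell in both layers by its brighter probe set. It went from 11.91, 11.63 and 11.79 to 11.02, 11.18 and 11.01 in epithelium (fall of 0.71 ± 0.09, adjusted p = 0.00253) and from 11.91, 12.01 and 12.03 to 11.36, 11.44 and 11.39 in stroma (fall of 0.59 ± 0.09, adjusted p = 0.00397). Both calls held in each fit that left out 1 array, and the layer difference was -0.11 ± 0.13 (95% interval -0.40 to 0.17). A second, dimmer Myh9 probe set fell in epithelium, from 9.59, 10.20 and 9.48 to 9.04, 8.61 and 8.56 (-1.01, adjusted p = 0.0168). In stroma that probe set read 9.26, 9.36 and 9.16 and then 9.02, 9.39 and 9.36 with no difference (-0.00), so the probe sets disagreed there. Its layer difference in the E2 effect was -1.01 (adjusted p = 0.131). Under vehicle its difference between the layers was 0.49 (epithelial minus stromal, adjusted p = 0.0912), opposite in sign to the brighter probe set. With the mean of both the stromal difference was -0.30 (adjusted p = 0.186, over all alternatives 0.00138 to 0.186). On the epithelial arrays alone the epithelial fall had an adjusted p of 0.0911, within a range of 0.00134 to 0.0911.

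Myl9, the regulatory light chain whose phosphorylation starts contraction, rose in stroma from 12.33, 12.34 and 12.34 to 12.76, 12.77 and 12.79 (0.44 ± 0.10, adjusted p = 0.0354). Its stromal vehicle arrays had the smallest SD of any member in that group. Leaving out any 1 of the 6 stromal arrays ended the call (adjusted p from 0.0967 to 0.129), with the difference between 0.43 and 0.45. On the stromal arrays alone the call was kept. The pooled error also takes in the epithelial SDs of 0.19 and 0.12 (vehicle, E2), against 0.008 and 0.015 in stroma. In epithelium it went from 11.70, 11.35 and 11.66 to 11.99, 11.76 and 11.83 without overlap, which did not pass (0.29 ± 0.10, adjusted p = 0.171). The layer difference was -0.15 ± 0.14 (95% interval -0.47 to 0.16). Myh10, the heavy chain of nonmuscle myosin IIB, measured 10.13, 10.02 and 10.56 and then 9.86, 9.64 and 9.85 in epithelium (-0.45 ± 0.14, adjusted p = 0.135) and differed by -0.16 ± 0.14 in stroma. The essential light chain Myl6 differed by 0.11 ± 0.11 and 0.21 ± 0.11. Its 6 probe sets gave stromal differences between 0.19 and 0.22, and signal from near-identical copies of the gene cannot be told apart.

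The tropomyosins, which wind along actin and gate myosin, together with caldesmon and the other calponins had 0 of 7 past the threshold by limma in either layer, with 4 in epithelium and 1 in stroma at an unadjusted p under 0.05. Tpm2 measured 9.66, 9.81 and 9.69 and then 9.64, 9.39 and 9.11 with E2 in epithelium (-0.34 ± 0.12) and 10.02, 10.04 and 10.02 and then 10.30, 10.30 and 10.19 in stroma (0.24 ± 0.12), with no overlap in either layer and opposite signs. Its layer difference was -0.58 ± 0.17 (adjusted p = 0.166), and both it and the epithelial difference passed with quantile normalization (adjusted p = 0.0331 and 0.0378). Cnn2, a calponin of many cell types, likewise differed by -0.19 and 0.18 without overlap and without passing (layer difference -0.37 ± 0.11, adjusted p = 0.191). Tpm1 differed by -0.24 and 0.04, Tpm3 by -0.00 and -0.04, Tpm4 by 0.19 and 0.06, Cnn3 by -0.15 and 0.17 and the actin-myosin linker caldesmon (Cald1) by -0.01 and 0.09, in epithelium and stroma. Other, dimmer Tpm3 probe sets differed by -0.30 to -0.02 in epithelium and by -0.02 to 0.10 in stroma, without passing.

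Of the 6 crosslinkers and focal adhesion proteins, Flna, which joins actin filaments into networks, fell in epithelium. It measured 12.56, 12.62 and 12.58 under vehicle and 12.23, 12.28 and 12.27 under E2 (fall of 0.33 ± 0.07, adjusted p = 0.0275), the E2 arrays lying well below the vehicle arrays and close together. In stroma it read 12.65, 12.67 and 12.66 and then 12.61, 12.71 and 12.67 (0.00 ± 0.07, 95% interval -0.15 to 0.15), and the layer difference did not pass (-0.33 ± 0.10, adjusted p = 0.172). The epithelial call was lost without vehicle replicate 1, E2 replicate 1 or E2 replicate 2 (adjusted p from 0.0602 to 0.120). Vinculin (Vcl), which couples integrin adhesions to actin, read 11.84, 12.30 and 12.02 and then 11.71, 11.67 and 11.79 in epithelium (-0.33 ± 0.12, adjusted p = 0.173). Zyxin (Zyx), a sensor of stress fibre tension, went the other way there, from 11.24, 11.21 and 11.14 to 11.65, 11.52 and 11.33 (0.30 ± 0.10, adjusted p = 0.167), and neither passed. The alpha-actinins Actn1 and Actn4 and talin (Tln1), the integrin activator, differed by -0.07, -0.17 and -0.09 in epithelium. In stroma 0 of the 6 passed by limma and 0 had an unadjusted p under 0.05.

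The transcription factors did not pass by limma, and neither had an unadjusted p under 0.05 in either E2 comparison. Srf lay at 8.81 to 9.26 in epithelial and 9.32 to 9.40 in stromal arrays, with E2 differences of -0.06 ± 0.12 (95% interval -0.33 to 0.21) and -0.01 ± 0.12 (-0.28 to 0.26). Myocd, the muscle-restricted cofactor myocardin, lay in the range 5.25 to 5.66 on all 12 arrays, well below the array medians. Its differences were 0.05 ± 0.12 and 0.13 ± 0.12.

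The LIM domain proteins connect actin structures with signalling and had 0 of 4 past the threshold by limma in either layer, with 1 in each at an unadjusted p under 0.05. Fhl1 came nearest, from 11.54, 12.03 and 11.85 to 12.25, 12.29 and 12.41 in stroma without overlap (0.51 ± 0.13, adjusted p = 0.0541). It passed with quantile normalization, with the filter on low values, on the stromal arrays alone and without stromal vehicle replicate 2 (adjusted p over all alternatives 0.0289 to 0.201). Fhl2 differed by -0.31 ± 0.14 in epithelium and -0.25 ± 0.14 in stroma. Pdlim7, a PDZ and LIM adaptor of stress fibres, differed by -0.45 ± 0.14 and -0.05 ± 0.14, and it passed downward in epithelium without vehicle replicate 3. Csrp1 differed by 0.14 ± 0.08 and 0.16 ± 0.08.

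Read across roles, the members' E2 differences were positive for 23 of 34 in stroma and negative for 22 of 34 in epithelium, and the layer difference was negative for 28 with a median of -0.17, against 0.01 over all probe sets tested. E2 and vehicle arrays did not overlap in 15 members upward and 3 downward in stroma, where 15.9% and 14.6% of all probe sets did so, and in 3 upward and 13 downward in epithelium, where it was 6.95% and 8.04%. Among probe sets passing the filter on low values the shares were 17.2% and 21.9% in stroma and 9.86% and 11.6% in epithelium. Most of these members did not pass singly.

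Under vehicle the epithelial layer had lower signal than stroma for 17 members and higher for 1, where 14.1% and 7.27% of all probe sets were so. The members called made up 52.9%, beside 21.4% of all probe sets. The filtered fit called 20 of 33 members, beside 36.4% of its probe sets. Over the 34 members of the main fit the median difference (epithelial minus stromal) was -0.35. Of the 11 smooth muscle proteins 10 were lower in epithelium. The largest of these differences were those of Myh11 (-1.63 ± 0.22, 3.09-fold), Actg2 (-1.58 ± 0.21, 2.98-fold), Lmod1 (-1.21 ± 0.10, adjusted p = 1.8e-05), Mylk (-1.13 ± 0.17) and Des (-1.04 ± 0.12). Pcp4 (-0.89), Synpo2 (-0.63), Cnn1 (-0.47), Smtn (-0.36) and Tagln (-0.35) were lower too. Acta2 did not pass (-0.22 ± 0.07, adjusted p = 0.0553) although its groups did not overlap, and it passed with the array medians set equal, quantile normalization, the filter and a trended prior.

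The other roles were less uniform under vehicle. Fhl1 showed a difference of -1.54 ± 0.13 (2.90-fold, adjusted p = 1.89e-05), with 10.14, 10.32 and 10.35 in epithelium against 11.54, 12.03 and 11.85 in stroma. Myl9 (-0.77), Myh10 (-0.77), Csrp1 (-0.59), Tpm4 (-0.54), Fhl2 (-0.52) and Tpm1 (-0.31) were also lower in epithelium. Zyx was higher there, at 11.24, 11.21 and 11.14 against 10.85, 10.60 and 10.75 (0.47 ± 0.10, adjusted p = 0.00867). Myh9 (-0.21 ± 0.09), Flna (-0.07 ± 0.07), Actn1 (-0.09 ± 0.07) and Actn4 (0.10 ± 0.09) did not pass. With the replicate number as a block, 17 members passed, beside 19.6% of all probe sets. Tagln (adjusted p = 0.0675) and Tpm1 (0.0756) were no longer among them and Vcl was added (0.0378). Over all alternatives those adjusted p-values ran from 0.0106 to 0.143, 0.0181 to 0.0890 and 0.00609 to 0.195. In all, 12 of the 18 passed in every fit that left out 1 array, and the other 6 lost the call in some. Synpo2 lost it without any 1 of the 6 vehicle arrays (adjusted p up to 0.163), Tagln without any but epithelial replicate 3 (up to 0.127) and Tpm1 without any but epithelial replicate 2 (up to 0.0890). Without stromal replicate 2 or 3 the calls of Smtn (also without epithelial replicate 1, up to 0.102), Pcp4 (up to 0.0559) and Fhl2 (also without epithelial replicate 3, up to 0.0785) were lost.

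Under E2 the epithelial layer was lower for 26 members and higher for 1, where 9.18% and 4.43% of all probe sets were so. The members called made up 79.4%, beside 13.6% of all probe sets. The filtered fit called 27 of 33 members, beside 24.9% of its probe sets. Over the 34 members of the main fit the median difference was -0.57. These comparisons between layers share their arrays with the E2 comparisons above. Actg2 differed by -2.88 ± 0.21 (7.37-fold), Myh11 by -2.72 ± 0.22 (6.61-fold), Fhl1 by -1.84 ± 0.13, Lmod1 by -1.62 ± 0.10 and Cnn1 by -1.20 ± 0.08. Acta2 passed here (-0.58 ± 0.07, adjusted p = 0.000416). Tagln (-0.49), Des (-0.67), Synpo2 (-0.96), Smtn (-0.55) and Mylk (-0.95) were lower in epithelium as well. Pcp4 alone of the smooth muscle proteins was not called (0.23 ± 0.22, adjusted p = 0.527).

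All 4 broadly expressed myosins were lower in epithelium under E2, Myh10 by the widest margin (-1.06 ± 0.14), followed by Myl9 (-0.92 ± 0.10), Myl6 (-0.39 ± 0.11) and Myh9 (-0.32 ± 0.09). So were 6 of the 7 tropomyosin, caldesmon and calponin genes, with Tpm2 at -0.88 ± 0.12, Cnn3 at -0.73, Tpm1 at -0.59, Cnn2 at -0.57, Tpm4 at -0.42 and Cald1 at -0.40. Tpm3 differed by 0.09 ± 0.12 (95% interval -0.18 to 0.36). Its other, dimmer probe sets differed by -0.01 to 0.11 under E2 and by 0.13 to 0.27 under vehicle, without passing. Vcl (-0.64), Flna (-0.40) and Tln1 (-0.30) were lower, and Zyx was again higher in epithelium (0.90 ± 0.10, 1.86-fold). Csrp1 (-0.61) and Fhl2 (-0.58) were lower, while Srf (-0.32 ± 0.12), Myocd (-0.05 ± 0.12) and Pdlim7 (-0.21 ± 0.14) did not pass. In fits leaving out 1 array 21 of the 27 kept their call. Tln1 lost it without any 1 of the 6 E2 arrays (adjusted p up to 0.153), Myh9 without any but epithelial replicate 2 (up to 0.136) and Myl6 without any but epithelial replicate 1 (up to 0.103). Cald1 lost it without epithelial replicate 3 or any 1 stromal array (up to 0.124), Fhl2 without stromal replicate 1 or 2 (up to 0.0799) and Tagln without replicate 2 of either layer (up to 0.0557).

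**Figure D3:**
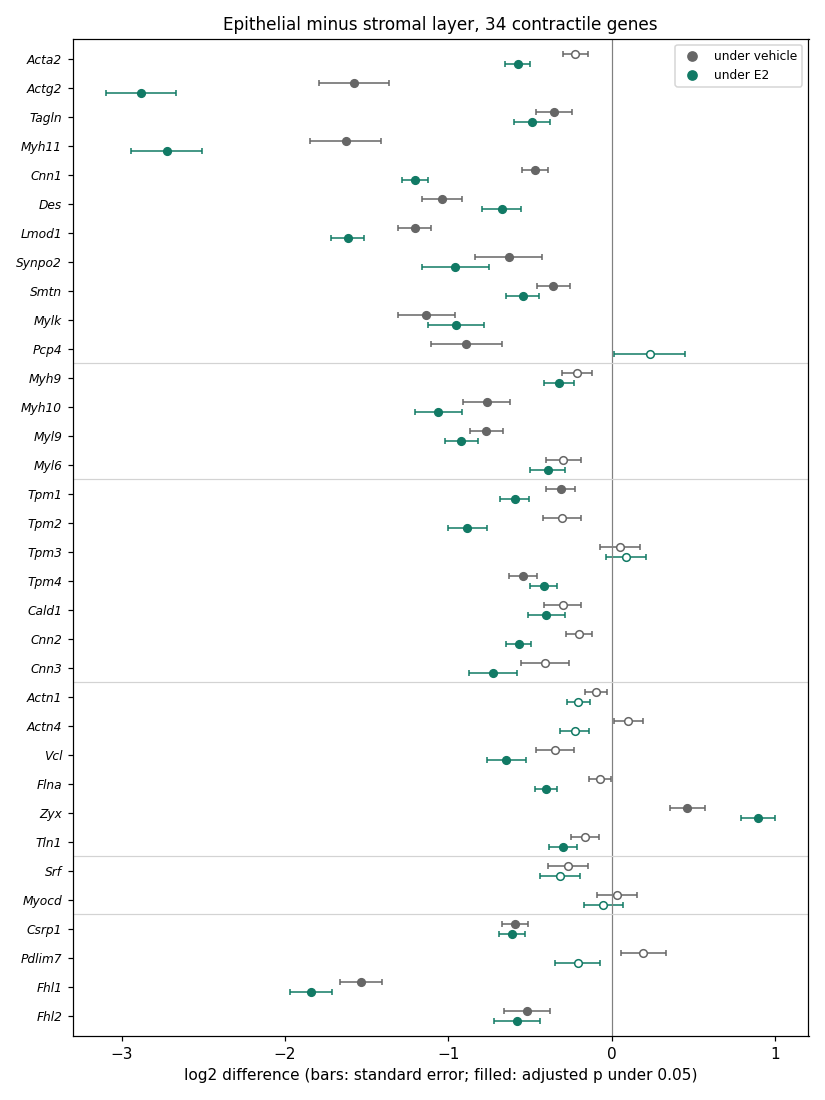
Log2 difference between epithelial and stromal arrays (horizontal axis) for the 34 members (rows, grouped by role), under vehicle (grey) and under E2 (green), with standard errors from limma and filled points past the threshold. Differences are below 0 for 29 members under vehicle and 31 under E2, and Zyx is filled on the right under both treatments.

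Other genes of the pathway were taken from lists written from general knowledge. Among 14 SRF cofactors and targets the immediate early gene Fos rose in stroma, from 8.32, 8.68 and 8.74 to 9.88, 9.93 and 10.01 (1.36 ± 0.13, adjusted p = 0.000251), with a layer difference of -0.93 ± 0.19 (adjusted p = 0.0499). In epithelium 0 of the 14 passed by limma and 4 had an unadjusted p under 0.05, the medians being -0.04 in epithelium and -0.04 in stroma.

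Of 18 other focal adhesion and actin-binding genes the adhesion protein tensin 3 (Tns3) fell in stroma (-0.55 ± 0.11, adjusted p = 0.0185), and 0 passed by limma in epithelium, where 6 had an unadjusted p under 0.05 (medians 0.00 in epithelium and -0.11 in stroma). Of 14 genes for excitation and calcium in smooth muscle, the oxytocin receptor Oxtr and the gap junction gene Gja1 rose in epithelium, Oxtr from 7.63, 7.74 and 8.04 to 10.93, 11.07 and 10.74 and Gja1 from 11.31, 11.90 and 11.58 to 12.86, 12.88 and 12.72. Both also passed for the layer difference in the E2 effect (2.52 ± 0.35, adjusted p = 0.00932, and 1.24 ± 0.20, adjusted p = 0.0146). In stroma 0 of the 14 passed by limma, 1 at an unadjusted p under 0.05 (medians 0.11 in epithelium and 0.08 in stroma). Both rose in the layer where Actg2, Myh9 and Flna fell.

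Markers of other cells were measured in the same arrays. The mean of 8 pericyte markers was 8.77, 9.26 and 9.14 in stromal vehicle and 8.73, 8.73 and 8.83 in stromal E2 arrays, vehicle replicate 1 being the low one. Their median E2 difference was 0.06 in epithelium and -0.06 in stroma, where 3 were positive and 5 negative. The proteoglycan Cspg4 had the largest fall in stroma (-2.11 ± 0.35, adjusted p = 0.00648), from 10.95, 11.47 and 11.59 to 9.32, 9.25 and 9.12, and the other 7 did not pass there. In epithelium the adhesion molecule Mcam fell (-0.60 ± 0.14) and the other 7 pericyte markers did not pass. Of 8 striated muscle markers Acta1 and Tnnt2 (-0.33 ± 0.08) fell in epithelium and 0 passed by limma in stroma, 2 at an unadjusted p under 0.05. That list averaged 6.94 to 7.23 over the arrays, below the array medians.

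The epithelial list had Cldn4 falling in epithelium (-1.24) and Krt7 rising in stroma (1.32) among 12, with medians of -0.71 and 0.12. The 13 fibroblast markers had 0 passing by limma in either layer, with 3 and 4 at an unadjusted p under 0.05 and medians of 0.17 in epithelium and -0.12 in stroma. Leukocyte markers (11) had Csf1r rising in epithelium (1.01), with medians of 0.57 and -0.40. Endothelial markers (8) had Kdr rising in epithelium (1.33) and Cdh5 falling in stroma (-1.50), and mesothelial markers (6) had Msln falling in epithelium (-1.32). The layer difference in the E2 effect passed for Krt7 (-1.93, adjusted p = 0.0495), Msln (-1.40, adjusted p = 0.0336) and Acta1 (-1.06, adjusted p = 0.0273). The leukocyte list averaged 7.86 to 8.29 in epithelial vehicle, 8.15 to 8.86 in epithelial E2, 8.81 to 9.07 in stromal vehicle and 8.57 to 8.81 in stromal E2 arrays. In the same order the endothelial list averaged 7.87 to 7.94, 7.71 to 7.97, 7.76 to 8.04 and 7.81 to 7.89, and the mesothelial list 9.62 to 10.33, 9.55 to 9.83, 6.99 to 7.21 and 7.13 to 7.29. The part of these cells in the members' differences was not tested.

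**Figure D4:**
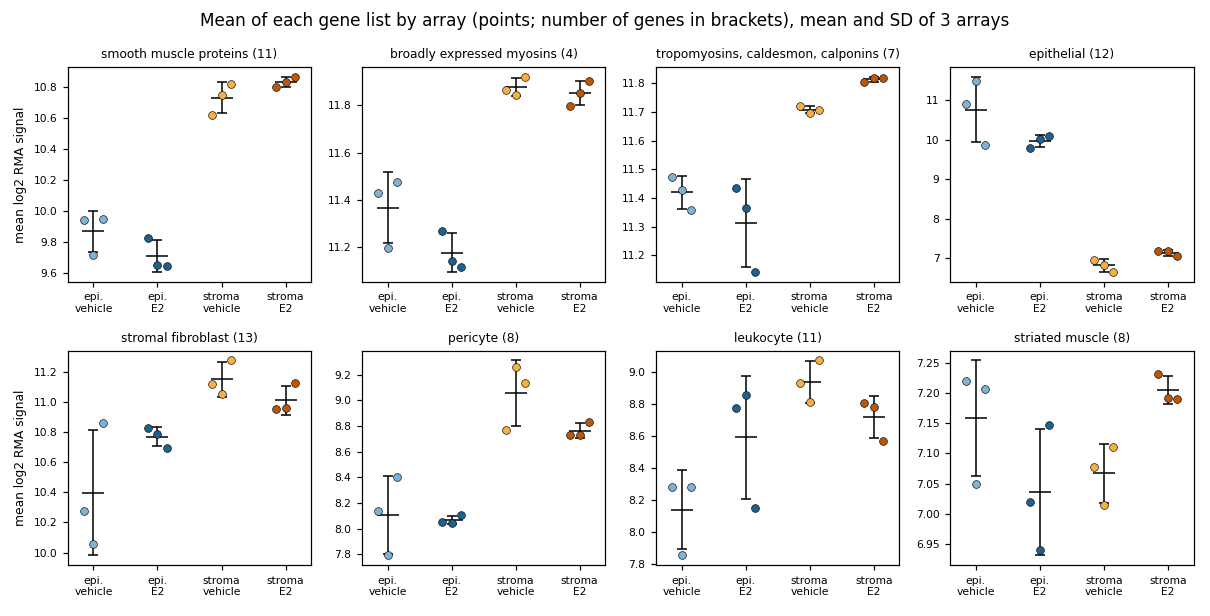
Mean log2 RMA signal (vertical axes, each with its own range) of 3 groups of members and 5 marker lists in each of the 12 arrays (points) by group, with the mean and SD of 3 arrays. The 11 smooth muscle proteins average 9.65 to 9.95 on epithelial arrays and 10.62 to 10.86 on stromal ones, and the fibroblast markers of epithelial vehicle replicate 3 lie above those of the other epithelial vehicle arrays.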

How the data were processed

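The authors deposited log2 signals of 35556 probe sets on 12 Affymetrix arrays, made with RMA per the submitters' processing notes, version and settings not given in the sources used here. RMA equalizes array distributions, which can hide a global shift. Whether differences between the brightest signals were compressed was not tested. Symbols came from the platform annotation, and all 34 members matched RefSeq (GRCm38.p6). Values were used as deposited.

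Differences were tested with limma 3.58.1 (R 4.3.3, lmFit and eBayes) on all 12 arrays in 4 groups, with 8 residual degrees of freedom, two-sided, adjusted by Benjamini-Hochberg over 23410 probe sets. Groups came from the titles. Since replicates may be technical, p-values reflect the spread of these arrays alone. The procedure was tested on simulated data that gave all 4 groups the same spread for a probe set. Epithelial arrays spread more widely than stromal ones, so that run cannot show whether the pooled error holds for the epithelial calls. Every member was named, with the genes of the other lists called for E2 or for the layer difference (17 lists in all, 1 of which is not reported here). Members and lists were chosen with earlier results of these data known. Promoters were to be shown for smooth muscle proteins with an exact box, of which there were 0 of 8, so those printed were chosen afterwards.

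Same-numbered vehicle arrays of the layers deviated together (r = 0.17, 0.14 and 0.13), each epithelial array most closely with the stromal array of its own number. In the other comparisons this did not hold for every number, with r from -0.42 to 0.27. The labels state no pairing, it was not established here, and the main fits used none. Alternatives were array medians set equal, quantile normalization, a filter on low values, a trended robust prior, only the arrays compared, the mean of a gene's probe sets, replicate blocks and each array left out.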

Additional observations from a re-analysis of the deposited data

Results flagged for a closer look

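The E2 effect on Cnn1 differed between the layers by a test of the difference itself. It was -0.13 in epithelium and 0.60 in stroma, a layer difference of -0.73 ± 0.11 (limma, adjusted p = 0.0144), with all 3 stromal E2 arrays above all 3 stromal vehicle arrays and the epithelial groups overlapping. The layer difference did not pass without epithelial E2 replicate 2, stromal E2 replicate 1 or stromal E2 replicate 2 (adjusted p from 0.0529 to 0.0568), nor with the replicate number as a block.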

How the results depend on the processing

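Each member called in any comparison kept its direction under each alternative run. For E2 in epithelium, 3 members passed, against 5 with quantile normalization (Acta2 and Tpm2 added), 0 on the 6 epithelial arrays alone (9 at an unadjusted p under 0.05), 1 with a replicate block (Actg2 and Flna lost), and 1 to 5 leaving out single arrays. The shares of all probe sets passing were 2.90%, 4.69%, 0.209%, 1.87% and 0.935% to 6.98%, in that order. For E2 in stroma, 5 passed, against 6 on the stromal arrays alone (Fhl1 added) and 4 with the replicate block (Lmod1 lost). The mean of probe sets gave 4 (Myh9 lost), and leaving out single arrays 2 or 3. The shares of all probe sets passing were 3.50%, 9.15%, 2.84%, 3.5% and 1.76% to 2.84%, in that order. For the layer difference in the E2 effect, 1 passed, against 2 with quantile normalization (Tpm2 added), 0 with the replicate block (14 at an unadjusted p under 0.05, Cnn1 at an adjusted p of 0.0773 within a range of 0.00851 to 0.0773) and 0 to 3 leaving out single arrays. The shares of all probe sets passing were 0.910%, 1.15%, 0.538% and 0.346% to 3.1%, in that order. The layer comparisons gave 12 to 17 under vehicle (beside 14.5% to 30.7% of all probe sets) and 21 to 25 under E2 (8.34% to 12.5%) leaving out single arrays. On only the arrays compared they gave 14 under vehicle and 24 under E2, beside 15.2% of all probe sets each. The block changed the calls of Tagln, Tpm1 and Vcl under vehicle and gave 25 under E2 (Myh9 and Tln1 lost), beside 12.1%. The CArG count moved from 7 to 10 of 30 with 1 mismatch allowed. The causes of these changes were not tested. With 3 arrays a group, smaller differences could not be told from the spread. Signal over background was not tested, also for Myocd on all arrays and Synpo2 on the epithelial arrays, which lay below the array medians. The same holds for Pcp4, near or below them outside the stromal vehicle arrays.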
